A study of Mus musculus with 12 samples.

Results

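The nuclear-encoded subunits of the mitochondrial respiratory chain were measured in mouse embryonic stem cells (mESCs) treated to delete *Prdm10* and in parallel vehicle-treated cells. Members were taken by gene name: the *Nduf* genes of series a, b, c, s and v for complex I, *Sdha* to *Sdhd* for complex II, the *Uqcr* genes and *Cyc1* for complex III, the *Cox4* to *Cox8* genes for complex IV and the *Atp5* genes for complex V. Of 54146 annotated genes, 98 carried such a name. Names marked as pseudogenes removed 8 of them, and a mean expected count below 100 over the 12 libraries removed 9 more. The remaining 81 members comprised 38 genes of complex I, 4 of complex II, 9 of complex III, 13 of complex IV and 17 of complex V. Just below the minimum lay *Cox4i2* with a mean expected count of 29.7 and *Cox7b2* with 13.0, and just above it lay *Ndufa4l2* with 133.9 and *Cox6b2* with 230.2.

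The respiratory chain sits in the inner mitochondrial membrane. Complexes I and II pass electrons from NADH and succinate to ubiquinone, complex III passes them on to cytochrome c, complex IV hands them to oxygen, and complex V, the ATP synthase, uses the proton gradient that results to make ATP. Complex II is built from nuclear genes alone, whereas each of the other complexes combines nuclear subunits with subunits read from mitochondrial DNA, and pluripotent cells in culture draw on glycolysis as well as on this chain.

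The study asked what the loss of PRDM10, a zinc finger transcription factor, does to gene expression in mESCs. Total RNA was sequenced from 4 groups of 3 libraries. All libraries came from C57BL/6 mESCs with *loxP* sites around exon 5 of both *Prdm10* alleles and a tamoxifen-inducible Cre at *Rosa26* (Prdm10F/F; Rosa26-CreERT2). Cells of the EtOH groups received ethanol for 24 h, and cells of the OHT groups received 50 nM 4-hydroxytamoxifen and are labelled Prdm10del/del; Rosa26-CreERT2. Cells were collected at Day 2 or Day 4. The EtOH cells carry the same inducible Cre but were not exposed to 4-hydroxytamoxifen, so effects of the compound, of active Cre and of the deletion cannot be told apart. The labels do not say whether the 3 libraries of a group came from separate cultures, so p-values measure only the spread between these libraries.

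Library depth ranged from 35017667 to 41409992 expected counts. *Prdm10* itself read 767.2, 820.6 and 815.2 normalised counts in the Day 2 EtOH libraries and 2080.2, 2224.5 and 2213.2 in the Day 2 OHT libraries. At Day 4 it read 820.6, 875.4 and 911.5 with EtOH and 1982.1, 2089.6 and 1965.0 with OHT. The gene-level count was thus higher in every library labelled OHT, although the label names a deletion. This count covers exons outside the deleted one and does not measure the deletion itself. The paper reports that recombination in induced cells of this genotype was verified in genomic DNA, in transcripts and in protein. Its transcript check measured the deleted exon, and it reports reduced PRDM10 protein. The gene-level counts used here cannot repeat that check. Directions below are those of libraries labelled OHT against libraries labelled EtOH. All 10 pluripotency markers had mean expected counts above 100, and none of 8 fibroblast or feeder markers did.

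The subunit mRNAs were abundant and short. The median member transcript measured 684 bases, against 2431 for all genes tested at Day 2, and 42 of the 81 members had a mean above 100 TPM, a level that is scaled to transcript length and library size. *Atp5b*, the catalytic beta subunit of the ATP synthase, had the highest mean level, 1210 TPM, followed within complex IV by *Cox4i1*, the common isoform of subunit 4, with 728 TPM. Median levels per complex were 83.8 TPM for complex I, 82.6 TPM for complex II, 151 TPM for complex III, 215 TPM for complex IV and 206 TPM for complex V. At the low end stood *Ndufa4l2*, a hypoxia-responsive paralogue of *Ndufa4*, with 4.08 TPM and *Atp5s*, whose product is named for the ATP synthase but is not a plain subunit of it, with 6.75 TPM. *Ndufb4* and *Ndufb4c* are near-identical, and their values are uncertain because reads may be split between them. *Ndufb4c* is annotated as a processed pseudogene, although its name does not mark it as one, and the other 80 members are annotated as protein-coding. It was called lower at Day 2 and higher at Day 4, and those calls were kept in 11 and 6 of 15 alternative analyses.

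Promoter windows are shown for 4 members whose mRNA moved in contrasting ways: *Uqcrh*, lower on both days, *Sdhd*, lower at Day 4, *Atp5h*, lower at Day 2 and higher at Day 4, and *Cox8a*, which moved like *Atp5h*. *Uqcrh* and *Atp5h* are also on the study's list of genes bound by PRDM10. The windows come from RefSeq on GRCm38.p6, span 250 bases before to 50 bases after the start site, and are written 5′ to 3′ on the gene's strand. They lie at chr4:116075021-116075320 for *Uqcrh*, chr9:50603800-50604099 for *Sdhd*, chr11:115419870-115420169 for *Atp5h* and chr19:7217567-7217866 for *Cox8a*, all on the minus strand. Capitals mark matches to the ETS/GABP core CCGGAAG on either strand and, in *Sdhd*, also to the ERR core TCAAGGTC.
Uqcrh: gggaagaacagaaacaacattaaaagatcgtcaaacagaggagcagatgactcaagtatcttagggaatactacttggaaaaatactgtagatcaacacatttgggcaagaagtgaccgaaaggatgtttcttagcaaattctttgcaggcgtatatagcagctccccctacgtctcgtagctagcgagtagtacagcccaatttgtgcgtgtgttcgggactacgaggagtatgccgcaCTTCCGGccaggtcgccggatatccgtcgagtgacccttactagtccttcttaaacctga
Sdhd: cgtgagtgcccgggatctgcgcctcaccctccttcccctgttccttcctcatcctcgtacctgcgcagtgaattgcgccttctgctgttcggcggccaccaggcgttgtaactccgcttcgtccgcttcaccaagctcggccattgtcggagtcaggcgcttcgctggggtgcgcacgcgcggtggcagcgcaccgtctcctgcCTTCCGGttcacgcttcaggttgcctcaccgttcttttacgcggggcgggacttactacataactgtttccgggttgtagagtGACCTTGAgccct
Atp5h: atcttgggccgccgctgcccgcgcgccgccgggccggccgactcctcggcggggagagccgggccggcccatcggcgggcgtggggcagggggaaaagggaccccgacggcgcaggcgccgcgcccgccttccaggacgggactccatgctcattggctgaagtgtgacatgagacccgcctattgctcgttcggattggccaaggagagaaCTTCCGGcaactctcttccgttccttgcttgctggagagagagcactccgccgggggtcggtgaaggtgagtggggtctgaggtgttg
Cox8a: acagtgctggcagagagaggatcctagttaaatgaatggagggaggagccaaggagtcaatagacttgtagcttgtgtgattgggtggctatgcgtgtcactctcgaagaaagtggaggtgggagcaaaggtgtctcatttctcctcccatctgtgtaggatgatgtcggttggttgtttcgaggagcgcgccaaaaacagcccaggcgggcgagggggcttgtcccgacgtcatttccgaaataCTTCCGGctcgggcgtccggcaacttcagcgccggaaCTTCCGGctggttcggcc

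Each of the 4 windows held the ETS/GABP letters on the minus strand, in reverse. The *Atp5b* window, prepared with them but not shown, held no match to any of the letters searched. The 4 shown are therefore not a sample of the members. Counted from 0 at the start site, the match ran from -10 to -4 in *Uqcrh*, from -46 to -40 in *Sdhd* and from -38 to -32 in *Atp5h*, and *Cox8a* had matches from -5 to 1 and from 32 to 38. A window could be matched for 66 of the 81 members, 64 by symbol and 2 by an older symbol, with *Uqcrq*, *Cox4i1* and 13 others not among them. The ETS/GABP core stood in 24.2% of these 66 windows, against 9.93% of all 27025 genes with a window. The NRF1 core GCATGCGC stood in 15.2% of member windows against 3.05% of all, the YY1 core AAGATGGC in 15.2% against 3.19%, and the ERR core in 4.55% against 1.18%. The probe that served to measure PRDM10 binding in gel shift assays contains letters that fit TGGTNNNGCCC, where N is any base. These letters occurred in 1 member window, that of *Cox7a1*, or 1.52% against 1.69% of all. Both strands were searched in every case. Such matches describe letters and are not evidence of binding, and a window without a match shows only that these letters are not in it. At Day 4, by the calls defined below, 7 of the 16 members with the ETS/GABP core were higher and 2 lower, with a median log2 fold change of 0.11. Of the 50 without it, 34 were higher and 1 lower, with a median of 0.16. With the NRF1 core, 5 of 10 were higher and 0 lower (median 0.12), against 36 and 3 of 56 without it (0.15). With the YY1 core, 7 of 10 were higher and 0 lower (median 0.16), against 34 and 3 of 56 without it (0.14). With the ERR core, 1 of 3 was higher and 1 lower, against 40 and 2 of 63 without it. These splits were not tested. Of all genes tested at Day 4, 23.5% were higher and 21.7% lower.

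At Day 2, no member was higher and 12 of 81 were lower in the libraries labelled OHT. A gene was called where DESeq2 gave a Benjamini-Hochberg adjusted p under 0.05 and its mean normalised count exceeded 100. The adjustment ran over the genes that passed the program's own filter on mean count. Among all genes tested at Day 2, 9.17% were called higher and 10.6% lower, so the count of lower members, 12 of 81, lay near the background. The log2 fold change was below 0 in 80 of 81 members, the exception being *Cox6b2*, and in 6725 of the 11644 genes tested. The median was -0.0869 in the members and -0.0285 in all genes. The calls were spread over the chain, with 3 lower members in complex I, 1 in complex II, 2 in complex III, 3 in complex IV and 3 in complex V. They were *Sdhc*, *Uqcrh*, *Uqcrq*, *Cox7c*, *Cox8a*, *Atp5a1* and *Atp5h*, with *Ndufb3*, *Ndufb4c*, *Ndufb6*, *Cox6c* and *Atp5g2* named after their values were seen, and their log2 fold changes lay between -0.24 and -0.11. The count was 5 without EtOH library 1 or without EtOH library 2 of that day and 7 without OHT library 2. The size of this displacement depended on how gene length was treated. When a smooth trend of fold change on gene length was removed, the members' median was -0.0103, 44 of 81 lay below 0, and only *Sdhc* and *Atp5h* were called lower. Within the members themselves, the 41 shorter had a median of -0.0805 and the 40 longer a median of -0.0882. On the TPM scale the members summed to 12682 ± 166 with EtOH and 12637 ± 462 with OHT (SD, n = 3 each), a difference of -0.361%.

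At Day 4, 50 of the 80 members tested were higher and 4 were lower in the libraries labelled OHT. *Ndufa4l2* was not tested because its mean at this day was under 100 normalised counts. Of all genes tested at Day 4, 23.5% were higher and 21.7% lower. The members' median log2 fold change was 0.13, against 0.0063 for all genes, and 65 lay above 0. Removing the length trend left 42 members higher and 5 lower, with a median of 0.11. Of the 50 higher members, 29 kept the call in each of 15 alternative analyses, and all 4 lower members did so.

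**Figure D1:**
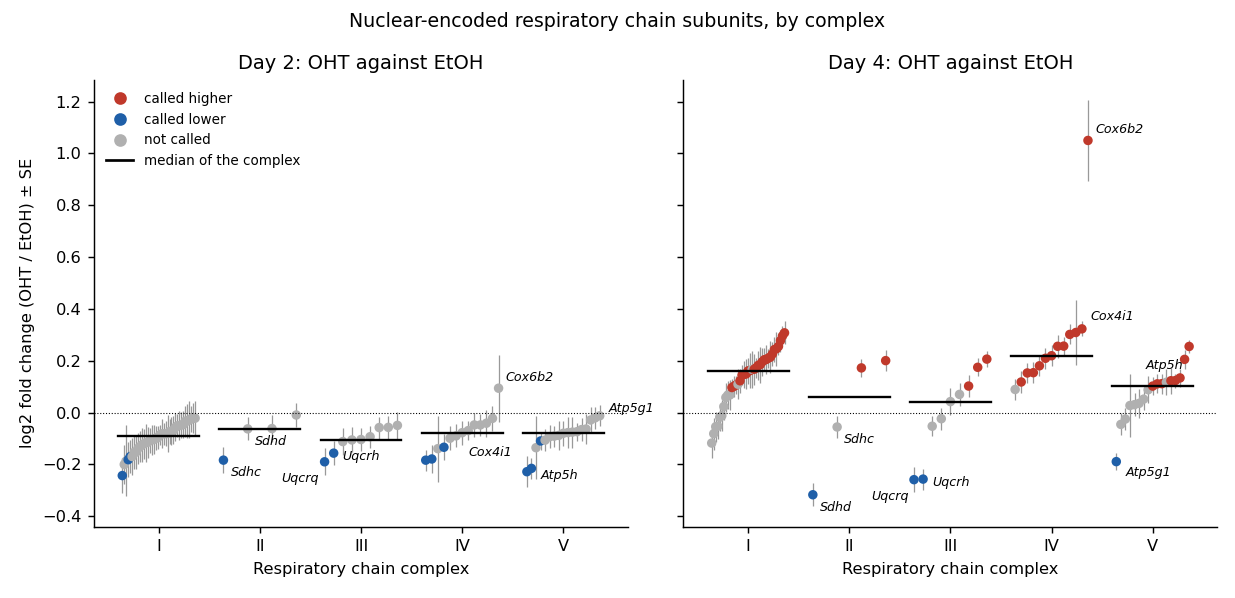
Log2 fold change of OHT against EtOH for every member at Day 2 and Day 4, ordered by complexes I to V, with red points for members called higher, blue for members called lower, grey for the rest, error bars for the SE and a black line for the median of each complex. Points lie below 0 in 80 of 81 cases at Day 2, and at Day 4 all 13 complex IV members lie above 0 while *Sdhd*, *Uqcrh*, *Uqcrq* and *Atp5g1* are the members called lower.

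The complexes did not move equally at Day 4, although no test compared one complex with another. In complex IV, 12 of 13 members were higher, the exception being *Cox7a2*, and the median was 0.22. In complex I, 25 of 37 were higher and none lower, with a median of 0.16. In complex V, 8 of 17 were higher and 1 lower, with a median of 0.10. Complex I had 15 higher members without OHT library 1 and 16 without EtOH library 2 or 3, and complex V had 4 without OHT library 2 and 5 without EtOH library 2 or 3. Complexes II and III were mixed. Of 4 members of complex II, 2 were higher and 1 lower, with a median of 0.0586. Of 9 members of complex III, 3 were higher and 2 lower, with a median of 0.0425. Among all genes tested at Day 4, 23.5% were higher and 21.7% lower. The complex III counts thus lay near the background, and complex II has too few members to set against it. The complex III median was -0.0077 with the length trend removed.

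On the TPM scale, complex IV summed to 3248, 3129 and 2985 in the Day 4 EtOH libraries and to 3604, 3529 and 3593 in the Day 4 OHT libraries. The groups did not overlap, and the means differed by 14.6%. The mean sum of complex I went from 3615 ± 137 to 3964 ± 22.4 and that of complex V from 4769 ± 193 to 5052 ± 28.0 (SD, n = 3 each), differences of 9.65% and 5.93%. The mean of complex III was 1683 ± 84.9 with EtOH and 1626 ± 9.81 with OHT, and that of complex II 307 ± 12.6 and 301 ± 3.42. In both, the libraries of the groups overlapped and the difference was smaller than the SD of the EtOH libraries. These sums are descriptions without a test. TPM values are shares of each library, and normalised counts are relative to the other genes, so neither scale measures RNA per cell, and in bulk RNA fewer cells of a type and less RNA per cell cannot be told apart.

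**Figure D2:**
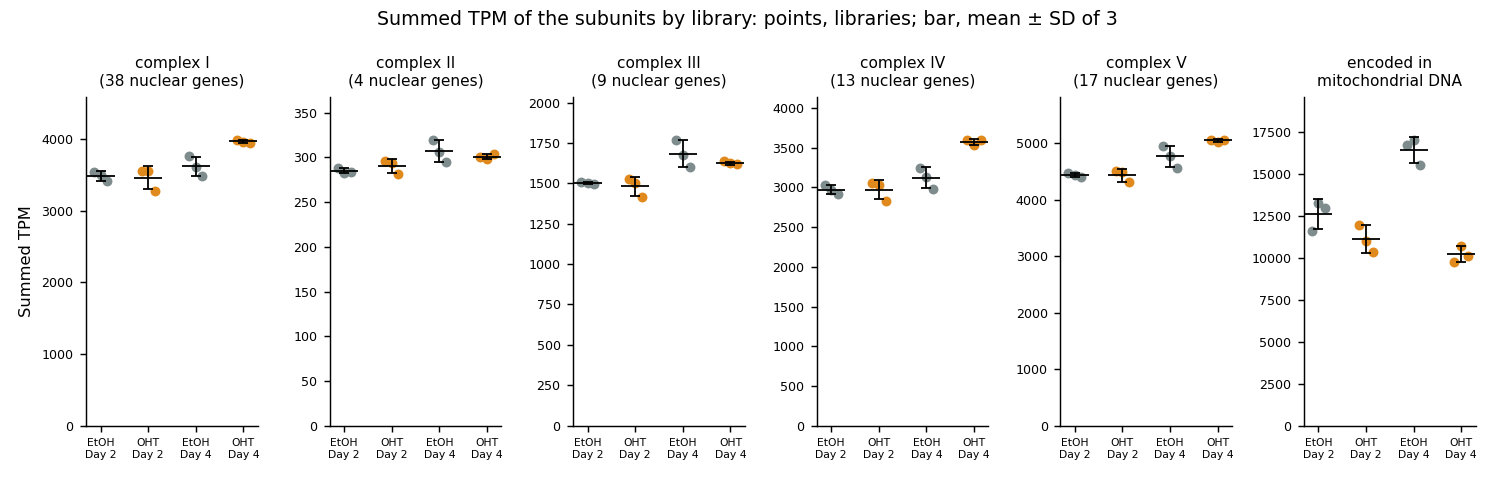
Summed TPM of the members of each complex, and of the 13 mitochondrially encoded subunits, per library (points, grey for EtOH and orange for OHT) with the mean and SD of the 3 libraries of a group (bars), on axes that start at 0. At Day 4 the complex IV sums are 3604, 3529 and 3593 with OHT against 3248, 3129 and 2985 with EtOH, and the mitochondrially encoded sum has a mean of 10209 TPM with OHT against 16421 with EtOH.

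Complex I takes electrons from NADH. *Ndufs1*, the largest iron-sulphur subunit of its peripheral arm, read 10373.4, 9869.6 and 9670.0 normalised counts with EtOH at Day 4 and 10813.7, 10744.4 and 10693.7 with OHT. The OHT libraries all lay above the EtOH libraries, and the log2 fold change was 0.11 ± 0.03 (SE, adjusted p = 0.00613). This call was lost without EtOH library 2, without EtOH library 3 and without OHT library 1. *Ndufv1*, which carries the flavin that accepts electrons from NADH, read 4408.4, 4396.8 and 4392.4 with EtOH and 5108.3, 5187.4 and 4999.5 with OHT. Its groups stood well apart, by 0.21 ± 0.04 (adjusted p = 1.15e-07). The most positive complex I values belonged to accessory subunits: *Ndufb9*, of the membrane arm, rose by 0.31 ± 0.05 (adjusted p = 1.31e-10), and *Ndufa7*, of the peripheral arm, rose by 0.30 ± 0.04 (adjusted p = 1.22e-12).

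*Ndufb9* read 2697.1, 2689.5 and 2619.1 with EtOH at Day 4 and 3372.0, 3379.5 and 3174.9 with OHT. *Ndufa7* read 3864.5, 3660.7 and 3678.2 with EtOH and 4539.7, 4629.9 and 4604.3 with OHT, and its level had been 4446.4 on average in the Day 2 EtOH libraries. The OHT libraries of Day 4 thus lay above their own controls, and for *Ndufa7* those controls lay below the Day 2 controls. *Ndufa10*, an accessory subunit of the membrane arm, rose by 0.26 ± 0.03 (adjusted p = 1.68e-12), with 5370.4, 5241.6 and 5306.9 normalised counts under EtOH and 6383.6, 6364.6 and 6281.9 under OHT. The most negative complex I values at Day 4 belonged to *Ndufs7*, an iron-sulphur subunit (-0.12, adjusted p = 0.0993), and *Ndufa2* (-0.0812, adjusted p = 0.343), neither of which passed the test. *Ndufa4*, named for complex I but known as a component of complex IV, rose by 0.14 ± 0.04 (adjusted p = 0.000746).

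**Figure D3:**
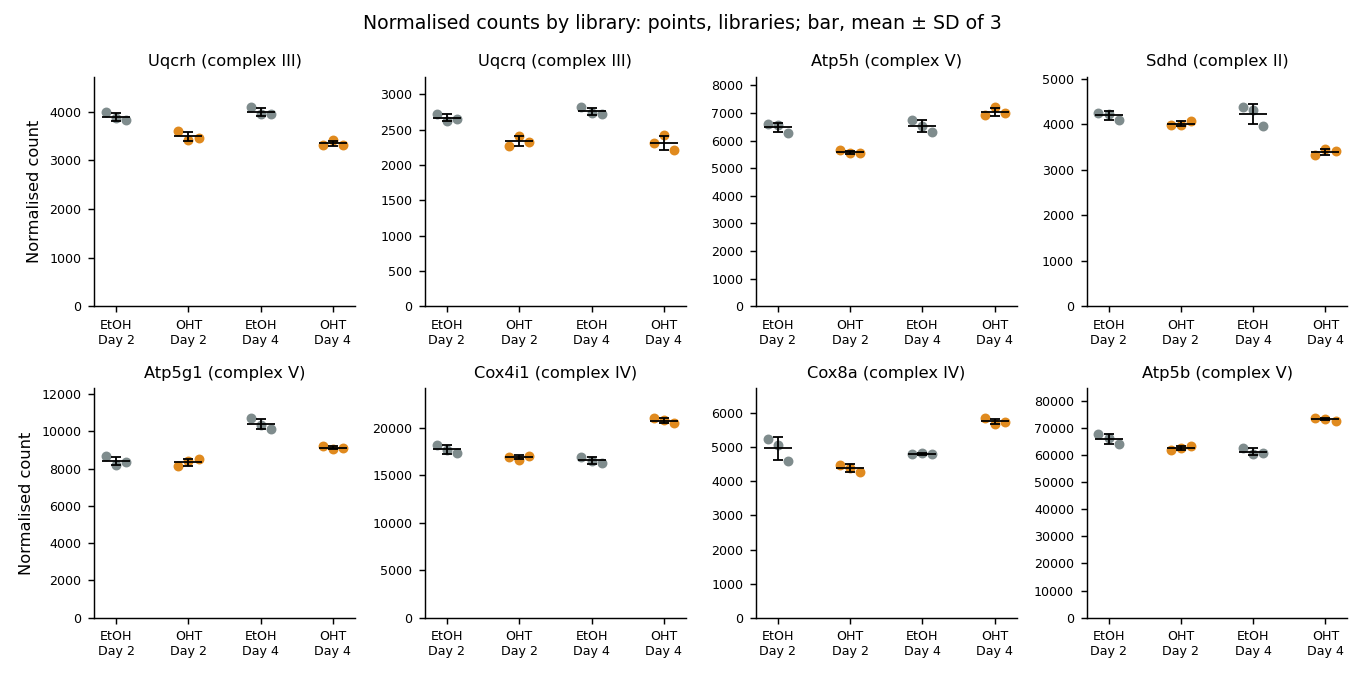
Normalised counts per library of selected members in the 4 groups, with grey points for EtOH libraries, orange points for OHT libraries, bars for the mean and SD of 3 libraries and each vertical axis starting at 0. *Uqcrh* and *Uqcrq* are lower with OHT on both days, *Sdhd* and *Atp5g1* are called lower at Day 4, and *Atp5h* is below its controls at Day 2 and above them at Day 4.

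Complex II is succinate dehydrogenase. Its catalytic pair rose at Day 4. *Sdha*, the flavoprotein, read 9972.9, 9151.3 and 9426.2 with EtOH and 10862.1, 10607.0 and 10754.1 with OHT, a log2 fold change of 0.17 ± 0.04 (adjusted p = 9.65e-06). *Sdhb*, the iron-sulphur subunit, read 3618.8, 3470.0 and 3559.9 with EtOH and 4100.4, 4169.3 and 3986.8 with OHT, a change of 0.20 ± 0.04 (adjusted p = 6.4e-06). In both, each OHT library exceeded each EtOH library.

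Of the membrane anchors, *Sdhd* fell at Day 4. It read 4381.6, 4321.7 and 3966.6 with EtOH and 3326.5, 3454.6 and 3406.5 with OHT. The groups were separate, the log2 fold change was -0.32 ± 0.05 (adjusted p = 4.37e-11), and this was the most negative value of any member tested at Day 4. At Day 2 the *Sdhd* value was -0.0627 (adjusted p = 0.387). *Sdhc*, the other anchor, was lower at Day 2, with 3636.2, 3632.2 and 3364.9 normalised counts under EtOH and 3044.9, 3134.0 and 3184.8 under OHT (-0.18 ± 0.05, adjusted p = 0.00349). At Day 4 its value was -0.0554 (adjusted p = 0.344). With effective lengths as offsets the calls changed places, with -0.12 at Day 2 (adjusted p = 0.185) and -0.14 at Day 4 (adjusted p = 0.0226), and the Day 2 call was also lost without EtOH library 2. *Sdhd* lies at chr9:50596357-50603812 on the minus strand.

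Complex III held 2 of the 4 members that were lower at Day 4, and both are on the list of genes bound by PRDM10. The list covers 3 of the 81 members and 627 of the 54146 annotated genes. The members passed a minimum count and the annotated genes did not, with 11555 of them tested at Day 4. These shares therefore cannot be compared, and no excess of bound genes among the members is shown. The study listed a gene where a binding peak lay in or near its body, so neighbours can share a peak. Whether binding had a part in these changes was not tested. *Uqcrh*, the hinge subunit that binds cytochrome c1, lies at chr4:116066965-116075071 on the minus strand. It read 3983.3, 3860.5 and 3831.7 normalised counts with EtOH and 3595.6, 3425.0 and 3451.7 with OHT at Day 2, and 4094.6, 3951.2 and 3942.3 against 3319.6, 3413.1 and 3319.1 at Day 4. Every OHT library lay below every EtOH library on both days. The log2 fold changes were -0.16 ± 0.05 (adjusted p = 0.00861) and -0.26 ± 0.04 (adjusted p = 3.02e-09).

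*Uqcrq*, a small membrane subunit near cytochrome b, lies at chr11:53427922-53430831 on the minus strand. It read 2718.6, 2624.7 and 2657.2 with EtOH and 2275.7, 2409.4 and 2325.4 with OHT at Day 2, and 2819.9, 2732.9 and 2728.3 against 2304.9, 2419.7 and 2209.6 at Day 4. It too was lower in every OHT library, by -0.19 ± 0.05 at Day 2 (adjusted p = 0.00318) and -0.26 ± 0.05 at Day 4 (adjusted p = 1.06e-06). The difference between the days did not pass the test in either gene, with interaction values of -0.0969 for *Uqcrh* (adjusted p = 0.171) and -0.0661 for *Uqcrq* (adjusted p = 0.506). This depended on the processing: with the length trend removed the interaction passed in both, at -0.23 for *Uqcrh* (adjusted p = 1.27e-05) and -0.21 for *Uqcrq* (adjusted p = 0.00273), and for *Uqcrh* it passed by edgeR (adjusted p = 0.0245) and with total counts (adjusted p = 0.0195). The Day 2 calls of both were lost with the length trend removed. That of *Uqcrh* was also lost with total counts, with the replicate block and without EtOH library 1 or OHT library 2. The Day 4 calls of both genes were kept in every alternative.

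The other complex III members named here did not follow them. *Uqcrc1*, a core subunit, read 9897.5, 9469.5 and 9488.0 with EtOH at Day 4 and 11181.9, 11142.8 and 11020.1 with OHT (0.21 ± 0.03, adjusted p = 7.28e-10). *Cyc1*, cytochrome c1, read 5022.6, 5077.6 and 5091.5 with EtOH and 5814.1, 5689.5 and 5672.8 with OHT (0.17 ± 0.04, adjusted p = 5.27e-06). Both rose, with no overlap between groups. *Uqcrfs1*, the Rieske iron-sulphur protein, gave -0.0235 (adjusted p = 0.734).

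All 13 complex IV values at Day 4 lay above 0. *Cox4i1* read 16960.7, 16486.6 and 16276.9 with EtOH at Day 4 and 20990.8, 20820.7 and 20491.8 with OHT. The groups were far apart relative to their spread, the level rose by 25.1%, and the log2 fold change was 0.32 ± 0.03 (adjusted p = 1.04e-27). At Day 2 it had read 18221.5, 17680.5 and 17301.1 with EtOH and 16965.5, 16640.7 and 17079.7 with OHT (-0.0693, adjusted p = 0.202). *Cox8a*, a small membrane subunit, was lower at Day 2 and higher at Day 4. It read 5232.9, 5070.3 and 4594.7 against 4489.6, 4399.3 and 4267.5 at Day 2, and 4795.5, 4844.4 and 4797.1 against 5844.7, 5687.5 and 5742.6 at Day 4. The log2 fold changes were -0.18 ± 0.05 (adjusted p = 0.00683) and 0.26 ± 0.04 (adjusted p = 5.79e-12). The first was lost with the length trend removed, with total counts and without EtOH library 1 or 2, and the second was kept in every alternative.

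*Cox6b2*, the testis isoform of subunit 6b, changed most in proportion. It read 110.4, 115.6 and 103.2 normalised counts with EtOH at Day 4 and 223.1, 223.4 and 236.2 with OHT, a difference of 107% (1.05 ± 0.16 on the log2 scale, adjusted p = 2.61e-10). The Day 4 EtOH libraries were the low group: at Day 2 the EtOH libraries had read 299.9, 277.4 and 257.3 and the OHT libraries 261.4, 336.0 and 293.0. In the EtOH libraries alone it fell by 1.35 from Day 2 to Day 4 (adjusted p = 7.5e-17). The smallest complex IV changes at Day 4 were those of *Cox7a2* (0.0893, adjusted p = 0.0633) and *Cox7c* (0.12 ± 0.04, adjusted p = 0.0197), whose groups overlapped at Day 4. The *Cox7c* call was kept in 9 of 15 alternatives, the losses including those with effective lengths and without EtOH library 2 or 3 or OHT library 1 or 2. *Cox7c*, a small membrane subunit, had been lower with OHT at Day 2, with 7328.1, 7019.8 and 7147.7 normalised counts against 6312.3, 6405.1 and 6200.8 (-0.18 ± 0.04, adjusted p = 0.000168), also a call lost with the length trend removed. *Cox7a2l*, named for subunit 7a but known as a factor that joins complexes III and IV, rose by 0.15 ± 0.04 (adjusted p = 0.00079).

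In complex V, *Atp5b* read 62533.4, 60205.8 and 60869.0 with EtOH at Day 4 and 73452.5, 73387.3 and 72627.7 with OHT. It rose by 19.3%, with wide separation between the groups (0.26 ± 0.03, adjusted p = 3.04e-22). Its catalytic partner *Atp5a1*, the alpha subunit, read 43478.4, 41838.0 and 41577.5 with EtOH and 46342.6, 46453.1 and 45681.9 with OHT, a smaller rise of 0.12 ± 0.03 (adjusted p = 3.49e-05). At Day 2 *Atp5a1* gave -0.11 ± 0.04 (adjusted p = 0.0178), a lower call kept in only 6 of 15 alternatives. The losses included those by edgeR, with the length trend removed, with total counts and without EtOH library 1 or 2 or OHT library 1 or 2. *Atp5o*, of the peripheral stalk, rose at Day 4 by 0.21 ± 0.04 (adjusted p = 1.36e-07).

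The genes of the c-ring, which encode the same mature protein, did not move together. *Atp5g1* was the fourth lower member at Day 4, with 10689.2, 10328.1 and 10130.3 normalised counts under EtOH and 9210.7, 9061.1 and 9092.3 under OHT (-0.19 ± 0.03, adjusted p = 5.19e-08). Its EtOH level had itself risen from Day 2, when those libraries read 8653.4, 8214.2 and 8355.8, by 0.30 on the log2 scale (adjusted p = 1.41e-14). The OHT libraries of Day 4 therefore lay above the EtOH libraries of Day 2 and below those of Day 4. *Atp5g3* gave -0.0454 (adjusted p = 0.458). *Atp5g2*, named after its values were seen, gave 0.12 (adjusted p = 0.0426), a higher call kept in only 5 of 15 alternatives, with reads that the authors' counting assigned less certainly.

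*Atp5h*, a peripheral stalk subunit at chr11:115415689-115419962 on the minus strand, is the third member on the bound list. At Day 2 it read 6596.0, 6563.2 and 6279.4 with EtOH and 5642.9, 5551.9 and 5545.1 with OHT, and at Day 4 it read 6727.7, 6515.2 and 6304.4 with EtOH and 6942.3, 7213.7 and 6986.8 with OHT. The OHT libraries lay below their controls at Day 2 and above them at Day 4, without overlap on either day. The log2 fold changes were -0.22 ± 0.04 (adjusted p = 9.26e-06) and 0.11 ± 0.04 (adjusted p = 0.00904). Its Day 2 call kept its place in 14 of 15 alternative analyses, more than that of any other member. The Day 4 call was kept in 12 of 15, the losses including those without EtOH library 3 and without OHT library 2. The interaction for *Atp5h* was 0.33 ± 0.05 (adjusted p = 5.48e-10) and was kept in all 17 of its alternatives.

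Whether the treatment effect itself differed between the days was tested by the interaction of treatment and day, which uses the same libraries as both day comparisons. It was higher at Day 4 than at Day 2 for 51 of 81 members and lower for 2, *Sdhd* and *Atp5g1*. Of all genes tested for the interaction, 18.7% were called higher and 13.6% lower. The members' median difference was 0.23, against 0.0349 for all genes, and 0.15 with the length trend removed, when 36 were higher and 4 lower. By complex, 25 members of complex I, 2 of complex II, 3 of complex III, 12 of complex IV and 9 of complex V were higher. The smallest adjusted p-values belonged to *Cox4i1* (0.40 ± 0.04, adjusted p = 2.43e-21) and *Atp5b* (0.33 ± 0.04, adjusted p = 3.64e-17). Of the 12 members lower at Day 2, 8 were higher at Day 4, 2 were lower again, namely *Uqcrh* and *Uqcrq*, and 2 were not called. Of all 80 members tested at Day 4, 50 were higher and 4 lower, so the 8 of 12 lay near the share of the members as a whole. Among all genes tested at that day, 23.5% were higher and 21.7% lower.

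The controls changed with time as well. From Day 2 to Day 4 in the EtOH libraries, 4 members were higher and 21 lower, where 20.6% and 20.5% of all genes tested were higher and lower. Without Day 2 library 1 or 2 the lower members numbered 9 and 12, without Day 4 library 2 or 3 they numbered 11, and without Day 2 library 3 or Day 4 library 1 only 2 were higher. The 4 were *Atp5g1* and *Ndufs1*, with *Ndufb10* (0.18) and *Ndufa5* (0.23), the last pair named after their values were seen. The largest fall was that of *Ndufa4l2*, also named after its values were seen, which read 268.6, 272.6 and 231.2 normalised counts at Day 2 and 23.7, 15.8 and 31.4 at Day 4, a drop of -3.45 ± 0.24 on the log2 scale (adjusted p = 3.65e-46). With OHT it read 212.5, 252.5 and 213.5 at Day 2 and 35.5, 21.7 and 19.5 at Day 4, so the low level belonged to the day in both treatments. These comparisons share their EtOH libraries with the treatment comparisons, and time in culture and any difference in handling between the days cannot be told apart.

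The same libraries held other gene families of the mitochondrion, shown for comparison. The 13 subunits encoded by mitochondrial DNA went against the nuclear ones at Day 4: 11 were lower and none higher, with a median of -0.59. Of all genes tested at Day 4, 21.7% were lower and 23.5% higher. *mt-Co1*, the catalytic core of complex IV that the nuclear *Cox* subunits surround, read 307940.7, 314365.7 and 311760.1 with EtOH and 171866.0, 170090.1 and 168762.2 with OHT, far apart (-0.87 ± 0.02, adjusted p = 1.75e-299). At Day 2, 3 of the 13 were lower and 2 higher, against 10.6% and 9.17% of all genes. Summed TPM of the 13 was 12622 ± 893 with EtOH and 11108 ± 822 with OHT at Day 2, and 16421 ± 793 and 10209 ± 480 at Day 4 (SD, n = 3 each), differences of -12.0% and -37.8%. Because TPM is a share, the part of this fall in the rise of the nuclear members on that scale was not tested.

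Of 50 factors that assemble the complexes, 49 were tested at Day 4, of which 5 were higher and 9 lower, with a median of -0.0586. The lower count lay near the 21.7% of all genes and the higher count below the 23.5%. Among 15 for complex I, 2 were higher and 6 lower. *Cmc2*, a complex IV assembly factor on the bound list, had the strongest change of these, from 786.5, 713.4 and 739.5 normalised counts to 268.5, 286.6 and 271.6 (-1.44 ± 0.10, adjusted p = 9.68e-50). Of 14 genes for the mobile carriers cytochrome c and ubiquinone, 1 was higher and 2 were lower at Day 4, *Cycs*, cytochrome c, by -0.23 among them. Both counts lay below the shares of all genes, 23.5% and 21.7%.

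Among genes that feed the chain, 6 of other routes that pass electrons to ubiquinone were tested at Day 4. Of these, 4 were higher, against 23.5% of all genes: *Etfa* (0.20), *Etfb* (0.31) and *Etfdh* (0.35) of the electron transfer flavoprotein route, and *Prodh* (0.36). *Gpd2* was lower (-0.43), where 21.7% of all genes were lower. Of 13 genes of the tricarboxylic acid cycle, 4 were higher and 4 lower, against 23.5% and 21.7% of all genes, the latter including *Dlst*, a subunit of the oxoglutarate dehydrogenase complex that is on the bound list (-1.91). Among 10 regulators of mitochondrial gene expression tested, *Esrrb* was higher at Day 4 (0.40) and *Sp1*, *Pprc1*, *Tfam* and *Myc* were lower, by -0.24, -0.24, -0.14 and -0.36. Here too the shares of all genes were 23.5% higher and 21.7% lower.

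**Figure D4:**
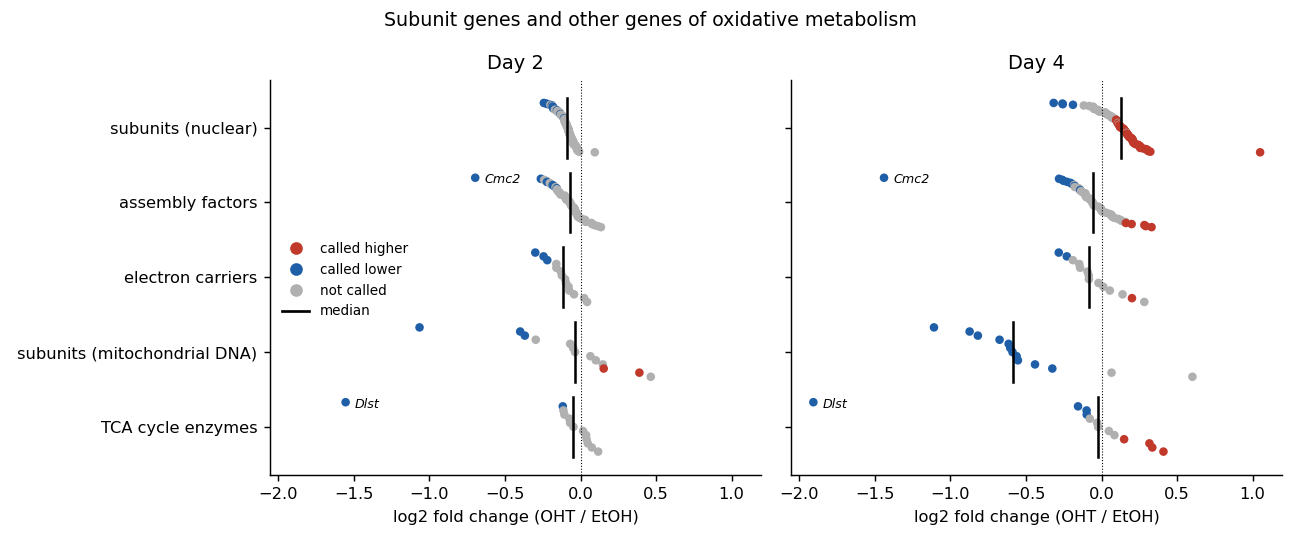
Log2 fold change of OHT against EtOH at Day 2 and Day 4 for each gene (points) of the nuclear subunits and of 4 comparison families, red where called higher, blue where called lower and grey otherwise, with a black line at each median. At Day 4 the nuclear subunits have 50 of 80 higher and 4 lower, while the mitochondrially encoded subunits have 11 of 13 lower and the assembly factors 5 higher and 9 lower of 49.

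The summed level of the pluripotency markers shifted in the same direction as the median of the subunits on both days. In normalised counts it ranged from 143526 to 146958 with EtOH and from 139495 to 141103 with OHT at Day 2, and from 130186 to 137332 with EtOH and from 146711 to 148350 with OHT at Day 4. Single markers were mixed: 2 of the 10 were higher and 4 lower at Day 2, and 6 were higher and 2 lower at Day 4. Of all genes tested, 9.17% were higher and 10.6% lower at Day 2, and 23.5% and 21.7% at Day 4. Fibroblast markers, none of which had a mean above 100, summed to between 219 and 260 with EtOH and between 144 and 169 with OHT at Day 4. Of 12 markers of differentiated cells, 2 had means above 100, and the 12 summed to 1481 to 1500 with EtOH and 1273 to 1338 with OHT at Day 4. The 2 tested at Day 4 went opposite ways, 1 higher (0.47) and 1 lower (-0.29), so the sum does not stand for each marker. The part of cell state or composition in the rise of the subunits was not tested.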

How the data were processed

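Total RNA libraries were sequenced stranded, and per the labels and the study's methods the authors aligned reads with STAR (2.6.0c) to GRCm38.p6 and estimated expression with RSEM on the GENCODE mouse annotation. The deposited values used are expected counts per gene, which RSEM estimates by sharing ambiguous reads, and TPM, which the authors' program divides by transcript length and scales to each library. The deposited comparison tables also hold the authors' log2 fold changes and p-values from DESeq2 (1.22.2); only their gene names were read. Symbols matched 54079 of 54146 genes.

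After rounding of the expected counts, all genes were fitted with DESeq2 (1.42.0, R 4.3.3), with the Wald test and median-of-ratios scaling. Benjamini-Hochberg adjustment ran over the genes that passed the program's independent filter on mean count. Calls were made at an adjusted p under 0.05 and a mean normalised count above 100. Each day was fitted on its 6 libraries, the interaction on all 12, and the control comparison on the 6 EtOH libraries. Fold changes come from these fits, and printed normalised counts from scaling all 12 libraries together. Values ± are SD over 3 libraries, or SE for fold changes. Totals of 35017667 to 41409992 expected counts limit precision mostly for members with few counts. Scripts were tested on simulated data.

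Members named in the text are those on the study's list of PRDM10-bound genes. Others are the pairs with the most negative and most positive Day 4 change in each complex. Also named are 9 subunits listed as redox or catalytic, the 5 of smallest interaction p, and those not plain subunits of their complex. *Cox4i1* was on that list of 9, although the catalytic core of complex IV is *mt-Co1*. The members and gene lists were chosen with earlier results of these data known. Alternatives were edgeR (4.0.16), other scalings and filters, effective lengths, removal of a loess trend on gene length, a replicate block and leaving out each library. Python (3.11.15), pandas (2.3.3), numpy (2.4.6) and matplotlib (3.10.9) were used for tables and figures. Promoter windows came from RefSeq tables on GRCm38.p6.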

Additional observations from a re-analysis of the deposited data

Results flagged for a closer look

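The treatment effect differed between the days for 21 of the 30 named members, by the DESeq2 interaction of treatment and day. Benjamini-Hochberg adjustment ran over the genes that passed the program's filter on mean count. Of all genes tested, 18.7% were higher and 13.6% lower in this interaction. The named members were chosen in part for a small interaction p or a large Day 4 change, so the count describes that choice. Values are the Day 4 log2 fold change minus that of Day 2. In complex I it was 0.31 for *Ndufa10*, 0.22 for *Ndufa4*, 0.35 for *Ndufa7*, 0.36 for *Ndufb9*, 0.20 for *Ndufs1* and 0.30 for *Ndufv1*. In complex II the catalytic pair gave 0.18 for *Sdha* and 0.27 for *Sdhb*, whereas the anchor *Sdhd* gave -0.25. Complex III gave 0.28 for *Cyc1* and 0.27 for *Uqcrc1*. Complex IV gave 0.40 for *Cox4i1*, 0.96 for *Cox6b2*, 0.25 for *Cox7a2l*, 0.30 for *Cox7c* and 0.44 for *Cox8a*. Complex V gave 0.24 for *Atp5a1*, 0.33 for *Atp5b*, 0.33 for *Atp5h* and 0.27 for *Atp5o*, with -0.17 for *Atp5g1*. The call for *Ndufa4* was lost when the trend on gene length was removed.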

How the results depend on the processing

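The 12 lower members of Day 2 were the least stable count: 25 in the fit to all 12 libraries, 2 with the length trend removed, 6 with the replicate block, 0 with the replicate block and the length trend removed together, 6 with scaling to total counts and 5 to 17 without one library. The median of all members at Day 2, -0.0869, was -0.0654 by edgeR, -0.0103 with the length trend removed, -0.0102 with the block added to that, -0.0493 by total counts and -0.11 to -0.0734 without one library. The 50 higher members of Day 4 numbered 32 with block and length trend removal and 35 to 51 without one library, with a median of 0.12 to 0.16. The replicate block alone gave 40 higher and 4 lower at Day 4 and 50 higher and 2 lower for the interaction. Same-numbered libraries of a day did not pair, with correlations of their deviations between -0.245 and 0.158, so the block is only a check. For the interaction, 4 members were lower with the length trend removed, *Uqcrh* and *Uqcrq* joining *Sdhd* and *Atp5g1*, and the median of 0.23 was 0.15 with it removed, 0.18 by total counts and 0.21 to 0.25 without one library. From Day 2 to Day 4 in EtOH, 7 members were higher by edgeR, 10 with the length trend removed, 7 by total counts and 2 to 5 without one library, and 13 were lower with the trend removed and 9 to 25 without one library. Their median was -0.0068 with the trend removed and -0.0876 to -0.0355 without one library. At Day 4, complex I had 13 higher members and complex V 5 with block and trend removal, and 15 to 26 and 4 to 7 without one library. The complex II median was 0.0112 with effective lengths, that of complex III 0.0109 to 0.11 without one library, that of complex IV 0.20 with the trend removed, 0.20 with block and trend removal and 0.20 to 0.25 without one library, and that of complex V 0.0545 with the trend removed, 0.0542 with the block added and 0.0845 to 0.11 without one library. Fewer libraries enter the leave-one-out fits. The cause of the other differences was not tested. Of 330 summary values under an alternative, 281 stayed within a set distance of the main value and 49 moved. For medians that distance was the SD between replicate libraries, whatever the sign. The Day 4 median of complex III, whose sign turned with the length trend removed, is thus among the 281. No median turned in direction by more than that SD. Of 1740 values of single named members, 1632 kept their call, 74 lost it and 34 gained one. Depth limits the members with few counts, such as *Cox6b2* and *Atp5s*, and reads shared between near-identical genes limit *Ndufb4* and *Ndufb4c*.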

Other observations

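*Ndufb1-ps* lies outside the members because its name is marked as a pseudogene, yet its mean expected count was 1158.8. It was named after its values were seen. It read 1325.1 ± 88.7 normalised counts with EtOH and 997.3 ± 56.7 with OHT at Day 2, and 1262.2 ± 65.0 and 1025.7 ± 50.4 at Day 4 (SD, n = 3 each). The log2 fold changes by DESeq2 were -0.41 (adjusted p = 1.33e-06) and -0.30 (adjusted p = 5.13e-05), so it was lower with OHT on both days.

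The genes of the cytosolic ribosome, another abundant set of short transcripts, had 32 of 89 lower and none higher at Day 2 and 74 higher and 6 lower at Day 4, with medians of -0.086 and 0.19. The mitochondrial ribosomal protein genes had 21 of 78 lower and 1 higher at Day 2 and 34 lower and 5 higher at Day 4, with medians of -0.10 on both days. Of all genes tested, 10.6% were lower and 9.17% higher at Day 2, and 21.7% and 23.5% at Day 4.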
